A study of Mus musculus with 8 samples.

Results

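The 42 genes described here carry out glycolysis or belong to the hypoxia response. They were chosen by gene symbol: 4 glucose and lactate transporters, 17 glycolytic enzymes, 6 regulators of glycolytic flux, 7 hypoxia-inducible factor (HIF) subunits and oxygen sensors, and 8 genes that HIF induces. These symbols had 43 of the 52325 gene identifiers in the table, because Aldoa had 2. The data are RNA levels in costal chondrocytes, the cartilage cells of the ribs, which were freed from dissected rib cages with collagenase. There were 4 wild-type mice (WT) and 4 mice without the microRNA gene Mir324 (null), with 1 RNA library from each animal, no treatment, and no age, sex or strain given in the sources used here. Both groups went through the same digestion. Values are TPM (transcript abundance), a level scaled for transcript length and to a fixed total in each library, so levels can be set side by side between genes.

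Glycolysis converts glucose to pyruvate and yields ATP without oxygen, provided that lactate dehydrogenase renews NAD+ by turning pyruvate into lactate. Cartilage has no blood vessels, and chondrocytes rely on this route for much of their ATP. HIF-1 is a pair of proteins, HIF-1 alpha and ARNT. Prolyl hydroxylases mark the alpha subunit for destruction through VHL while oxygen is present, and when oxygen is scarce the pair induces glucose transporters, most glycolytic enzymes and other genes. That control acts largely on protein, so the RNA of the HIF subunits does not report how active HIF is.

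The RNA removed in the null mice is a hairpin that gives the mature forms miR-324-5p and miR-324-3p (chr11:70012060-70012082 and chr11:70012095-70012114, plus strand, GRCm38.p6). They are shown because their absence is the only stated difference between the groups. The sequences are from RefSeq, and capitals mark the seed, bases 2 to 8, through which a microRNA pairs with its targets.
mmu-miR-324-5p: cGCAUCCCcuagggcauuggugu
mmu-miR-324-3p: cCACUGCCccaggugcugcu

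The hairpin gene Mir324 had 0 TPM in every library of either group and could not serve as a check of genotype. Col2a1, the main collagen of cartilage, was at 31940 to 43700 TPM. Of 11 skeletal muscle markers, Tnnt3 was at 40.2 to 107 TPM, Mylpf at 1.57 to 25.4 TPM and Tnnc2 at 0 to 2.94 TPM, and the other 8 were at 1.23 TPM or less, with Myh4 at 0 in all libraries. A single library, null replicate 3, stood apart. Pseudogenes held 25.0% of its TPM against 17.7% to 19.1% elsewhere, and it was the lowest of the 8 libraries for 43.3% of all tested genes. Values without it are given beside those that it moves most. RNA of the Y chromosome was expressed in WT replicate 2 and in null replicates 3 and 4, and Xist in the other 5.

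Marker lists of other cells and of stress were measured beside the members. Endothelial markers summed to 13.97 to 58.7 TPM in WT and 45.02 to 68.0 TPM in null mice, and all 9 tested had positive fold changes. Of these, 4 had an unadjusted p under 0.05 in limma, against 4.15% of all tested genes. Macrophage and monocyte markers summed to 43.99 to 62.6 TPM in WT and 59.9 to 87.0 TPM in null mice. Only Cd14 and Cd68 of that list of 11 were tested, both positive and Cd14 at an unadjusted p under 0.05, and the other 9 were at 1.08 TPM or less. Dissociation stress and immediate early genes summed to 13539 to 18404 TPM in WT and 8575 to 13218 TPM in null mice. Of these 14 genes, 13 had negative fold changes. In limma, 7 had an unadjusted p under 0.05 (6 negative and 1 positive), against 4.15% of all tested genes. Erythroid markers ranged widely in both groups, from 111 to 1082 TPM in WT and from 281 to 1039 TPM in null mice, and so did fibroblast and perichondrium markers, from 1393 to 4406 TPM and from 1551 to 3126 TPM. The part of these cells and of the stress response in the values below was not tested, and in bulk RNA fewer cells of a type and less RNA per cell cannot be told apart.

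Loss of Mir324 was not accompanied by a detectable change in any of the 42 genes. Each was tested within a limma fit to 13910 genes on log2(TPM + 1), and 0 of 42 passed at a Benjamini-Hochberg adjusted p of 0.05, where 3 of all 13910 genes passed (0.0216%). The smallest adjusted p among the 42 was 0.981 in limma. The unadjusted p was under 0.05 for 2 genes, against 4.15% of all tested genes: Hk2 on the higher side (against 1.78%) and Tpi1 on the lower (against 2.37%). Both are enzymes, so the count was 0 for the transporters, flux regulators, HIF subunits and sensors, and HIF-induced genes. The 4 null values lay entirely above or below the 4 WT values for 5 genes, against 2.68% of all tested genes: Hk2 was higher in null mice (against 0.978%), and Tpi1, Egln3, Bnip3l and Car12 were lower (against 1.7%). Without null replicate 3, 4 genes had an unadjusted p under 0.05 (against 5.06% of all genes), with Hk1 and Eno2 added, and 7 did not overlap (against 5.99%), with Hk1 and Aldoa added.

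More of the 42 fold changes were negative than positive, and a smaller share was positive than among all tested genes with and without null replicate 3. There were 10 positive and 32 negative values, so 23.8% were positive, where 39.9% of all tested genes were. Their median log2 fold change (null minus WT) was -0.15, against -0.05 for all tested genes. Without null replicate 3 there were 16 positive and 26 negative values, so 38.1% were positive against 54.97% of all genes, and the median was -0.07 against 0.02. Scaling by the median of ratios also gave 16 positive and 26 negative values (38.1% against 50.8% of all genes), with a median of -0.08 against 0.00 for all genes. These shares are descriptions and were not tested. The 95% interval lay within 1 log2 unit (2-fold of TPM + 1) of no change for 37 of the 42 (88.1%). It did so for 79.9% of all tested genes. Changes of TPM + 1 beyond 2-fold are thus outside the intervals of most of the 42. For genes at a few TPM, such as Egln3, Car9, Slc2a3 and Adm, the same limits allow larger changes of TPM itself. The interval lay within 1.5-fold of TPM + 1 for 19 (45.2%), against 41.9% of all tested genes, so smaller changes were not resolved in the remainder.

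**Figure D1:**
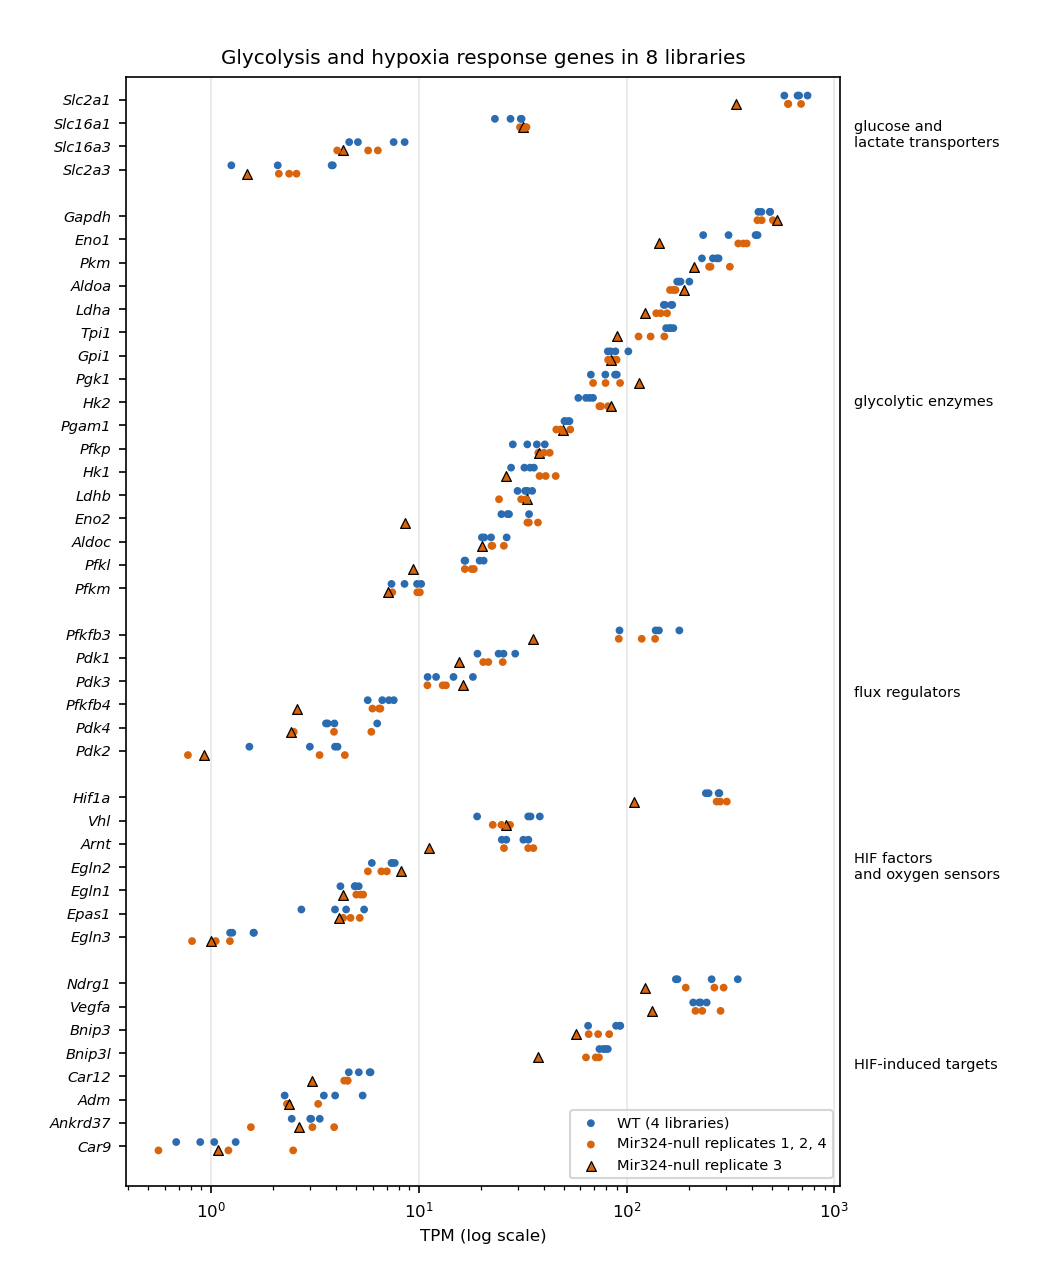
TPM of each tested member (horizontal axis, log scale) in every library, grouped by role and ordered by mean level. Circles are single libraries, WT in blue and null in orange, and triangles mark null replicate 3, which lies left of all other libraries for 20 of the 42 genes.

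**Figure D2:**
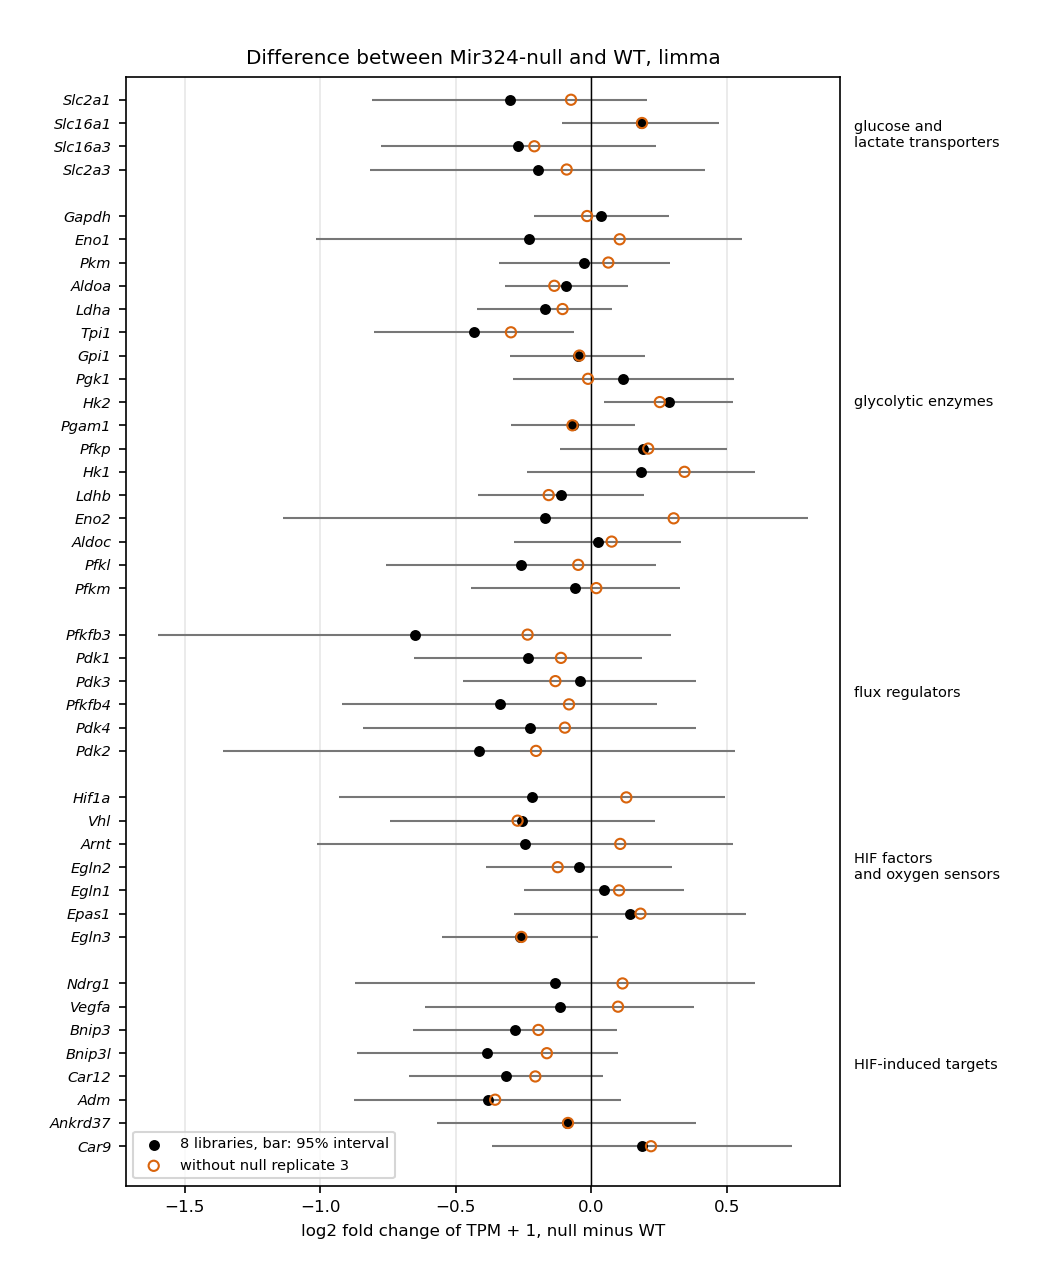
Log2 fold change of TPM + 1, null minus WT, for each member, with its 95% interval from limma (black) and the same value without null replicate 3 (open circle). Hk2 and Tpi1 are the 2 genes whose intervals exclude 0, and for Eno1, Eno2, Hif1a, Arnt, Ndrg1 and Vegfa, among others, the open circle lies on the other side of 0 from the black point.

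The promoters of 38 of the 42 genes were at hand in RefSeq (GRCm38.p6), and the 250 bases before each start site were searched on both strands for the core letters that HIF recognises, ACGTG or GCGTG. At least 1 match was present before a start site of 33 of the 38 genes (86.8%), against 41.5% of all 27025 genes with such windows. Windows of neighbouring start sites of a gene can overlap, as for Eno1 and Aldoa, and each is counted below. Over start sites, 42 of 54 (77.8%) had a match, against 56.2% of 11916 start sites of tested genes and 38.6% of all 32851 windows of the same length. The median number of CG pairs in a window was 13.5 for the members, 16.0 for tested genes and 6 for all windows. Base composition was not adjusted for further, and a match describes the letters and is not evidence of binding. Windows of 4 of the 5 genes whose groups did not overlap are shown with that of Ldha, whose first start site had 5 matches, the most of any member together with Bnip3. Capitals mark the matches, and where matches on opposite strands overlap they read CACGTG. Hk2 is at chr6:82774455-82774704 (minus strand), Tpi1 at chr6:124814159-124814408 (minus), Egln3 at chr12:54203875-54204124 (minus), Car12 at chr9:66713436-66713685 (plus) and Ldha at chr7:46845554-46845803 (plus).
Hk2: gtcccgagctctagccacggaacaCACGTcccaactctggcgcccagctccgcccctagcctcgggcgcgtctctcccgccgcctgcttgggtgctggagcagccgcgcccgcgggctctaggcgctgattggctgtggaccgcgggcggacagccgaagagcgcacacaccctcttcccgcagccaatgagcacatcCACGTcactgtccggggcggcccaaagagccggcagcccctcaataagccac
Tpi1: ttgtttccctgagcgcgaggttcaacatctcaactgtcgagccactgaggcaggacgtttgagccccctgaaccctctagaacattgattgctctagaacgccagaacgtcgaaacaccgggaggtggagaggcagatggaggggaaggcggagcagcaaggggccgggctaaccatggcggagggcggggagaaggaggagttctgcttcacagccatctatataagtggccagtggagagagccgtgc
Egln3: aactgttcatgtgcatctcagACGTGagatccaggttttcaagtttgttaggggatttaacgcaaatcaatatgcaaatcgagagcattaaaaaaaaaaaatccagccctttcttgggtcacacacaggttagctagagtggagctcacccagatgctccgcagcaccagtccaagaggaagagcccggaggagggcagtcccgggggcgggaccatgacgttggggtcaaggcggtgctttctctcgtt
Car12: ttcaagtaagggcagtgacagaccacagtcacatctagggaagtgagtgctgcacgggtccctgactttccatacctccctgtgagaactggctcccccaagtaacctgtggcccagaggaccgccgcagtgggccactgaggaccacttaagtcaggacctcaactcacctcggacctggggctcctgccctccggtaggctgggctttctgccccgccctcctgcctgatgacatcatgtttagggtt
Ldha: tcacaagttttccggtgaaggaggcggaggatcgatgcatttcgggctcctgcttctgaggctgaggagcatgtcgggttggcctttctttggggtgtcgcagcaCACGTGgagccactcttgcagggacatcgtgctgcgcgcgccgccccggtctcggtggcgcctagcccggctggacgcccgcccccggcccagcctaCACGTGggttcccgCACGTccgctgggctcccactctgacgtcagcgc

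In these windows Hk2 had 2 matches, 226 and 52 bases before the start site, and Egln3 had 1, at 229 bases. Tpi1 and Car12 had none of these letters in the window. Ldha had its 5 matches in 3 places, starting 145, 48 and 34 bases before the start site.

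Slc2a1 (GLUT1), the basal glucose transporter, had by far the higher level of the glucose transporter pair, and neither it nor a lactate carrier passed the test. Of the 4 transporters, 1 had a positive and 3 a negative fold change, with a median of -0.23, or -0.08 without null replicate 3. In order of replicate, here and below, Slc2a1 was at 676, 574, 665 and 743 TPM in the WT libraries and 598, 691, 335 and 600.2 TPM in those of null mice. This put it above 98.3% of tested genes and above every other member taken alone. With the near-identical copies described below added, Gapdh was higher, at a mean of 869.7 TPM in WT and 873 TPM in null mice. For Slc2a1, null replicate 3 was the lowest library and the other null values lay inside the WT range. Its log2 fold change was -0.30 (limma adjusted p = 0.981), or -0.07 without null replicate 3. Slc2a3 (GLUT3), a high-affinity glucose transporter, was far lower, at 2.10, 3.86, 3.81 and 1.25 TPM in WT and 2.58, 2.12, 1.499 and 2.38 TPM in null mice.

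Slc16a1 (MCT1), which carries lactate in either direction, was at 31.0, 31.3, 27.6 and 23.3 TPM in WT and 30.7, 32.7, 31.7 and 33.0 TPM in null mice. The null values were tightly grouped and overlapped the upper WT values, and the log2 fold change was 0.18. Slc16a3 (MCT4), an exporter of lactate that HIF induces, was at 7.57, 4.63, 8.56 and 5.10 TPM in WT and 6.36, 5.71, 4.34 and 4.05 TPM in null mice, with overlapping groups and a log2 fold change of -0.27. Both carriers had a limma adjusted p of 0.981.

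The glycolytic enzymes kept nearly the same total in both groups. Their summed level was 2040 ± 134 TPM in WT and 1964 ± 143 TPM in null mice (n = 4 each, SD), and their median log2 fold change was -0.06, or -0.01 without null replicate 3. Of the 17 enzymes, 6 had positive and 11 negative fold changes and 0 passed. Gapdh, which makes 1,3-bisphosphoglycerate and NADH, was the most abundant, at 491, 446, 489 and 431 TPM in WT and 506, 426, 530.4 and 447 TPM in null mice. The groups overlapped throughout, and its log2 fold change was 0.04, or -0.02 without null replicate 3.

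Hk2, the inducible hexokinase that traps glucose in the cell as glucose 6-phosphate, was the single member whose null values all exceeded the WT values. It was at 63.8, 58.6, 69.0 and 66.4 TPM in WT and 75.3, 81.4, 84.1 and 74.0 TPM in null mice. The gap between the groups was narrow, from 69.0 TPM in WT replicate 3 to 74.0 TPM in null replicate 4. The log2 fold change was 0.29 with a 95% interval of 0.05 to 0.52 (limma unadjusted p = 0.025, adjusted p = 0.981). It was 0.25 without null replicate 3 and 0.36 after median-of-ratios scaling. Hk1, the constitutive hexokinase, was at 27.8, 35.8, 34.3 and 32.2 TPM in WT and 38.1, 40.8, 26.2 and 45.6 TPM in null mice. Null replicate 3 was the lowest library and the other 3 null libraries lay above all WT libraries. Its log2 fold change of 0.18 became 0.34 without null replicate 3.

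Tpi1, which interconverts the 2 triose phosphates, was the enzyme with the most negative value. It was at 161, 162, 168 and 155 TPM in WT and 152, 114, 89.9 and 131 TPM in null mice. All 4 null values lay below the WT values, which were tightly grouped, and null replicate 1 came within 3.01 TPM of the lowest of them. The log2 fold change was -0.43 with a 95% interval of -0.80 to -0.06 (limma unadjusted p = 0.0266, adjusted p = 0.981), and -0.30 without null replicate 3. Ldha, the lactate dehydrogenase subunit that favours lactate formation, was at 164, 151, 166 and 153 TPM in WT and 146, 157, 122 and 139 TPM in null mice. Null replicate 2 lay among the WT values and the other 3 lay below them, for a log2 fold change of -0.17 (limma adjusted p = 0.981), or -0.11 without null replicate 3.

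The remaining enzymes had fold changes between -0.26 (Pfkl, the liver-type phosphofructokinase) and 0.19 (Pfkp, the platelet-type form) on the log2 scale, and each had overlapping groups. Without null replicate 3 the value was -0.05 for Pfkl and 0.21 for Pfkp. Pkm, pyruvate kinase, was at 259.9 ± 20.8 TPM in WT and 257 ± 42.4 TPM in null mice (n = 4 each, SD), and Aldoa, the main aldolase, at 184 ± 11.2 TPM in WT and 173 ± 11.6 TPM in null mice (n = 4 each, SD). Gpi1, which makes fructose 6-phosphate, was at 88.9 ± 9.23 TPM in WT and 85.6 ± 3.39 TPM in null mice (n = 4 each, SD), and Pgam1, phosphoglycerate mutase, at 51.6 ± 1.38 TPM in WT and 49.3 ± 3.25 TPM in null mice (n = 4 each, SD). Of the enzymes on either side of Tpi1 in the pathway, Aldoa had a log2 fold change of -0.09 and Gapdh of 0.04. The second Aldoa identifier, a neighbouring gene model, was at most 1.12 TPM and was not tested.

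Eno1, the main enolase, varied more between libraries than between genotypes, at 309.5, 234, 427 and 418 TPM in WT and 379, 345, 143 and 365 TPM in null mice. Null replicate 3 was the lowest, then WT replicates 2 and 1. The neuronal-type enolase Eno2 was at 25.0, 26.7, 33.96 and 27.2 TPM in WT and 33.3, 33.9, 8.63 and 37.5 TPM in null mice, with null replicate 3 at under 0.5 of the lowest other library. The log2 fold changes were -0.23 for Eno1 and -0.17 for Eno2, and both turned positive without null replicate 3, at 0.10 and 0.30.

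All 6 regulators of flux had a negative fold change; the median was -0.29, or -0.12 without null replicate 3, and 0 passed. Pfkfb3, which makes the fructose 2,6-bisphosphate that activates phosphofructokinase, was at 138, 92.5, 143 and 179.5 TPM in WT and 137, 91.7, 35.3 and 118 TPM in null mice. Null replicate 3 was far below the rest, and null replicates 1, 2 and 4 lay between 91.7 and 137 TPM, almost wholly inside the WT range of 92.5 to 179.5 TPM. The log2 fold change of -0.65 (95% interval -1.60 to 0.30) was the most negative of the 42, and it was -0.24 without null replicate 3. Pfkfb4, a related bifunctional enzyme, was at 7.58, 6.68, 5.69 and 7.19 TPM in WT and 6.54, 5.99, 2.60 and 6.45 TPM in null mice. Its log2 fold change moved in the same way, from -0.34 to -0.08.

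The pyruvate dehydrogenase kinases switch off the entry of pyruvate into the mitochondrion. Pdk1, the kinase that HIF-1 induces, was at 29.1, 19.2, 25.6 and 24.2 TPM in WT and 25.4, 21.6, 15.7 and 20.4 TPM in null mice, and the groups overlapped (log2 fold change -0.23; limma adjusted p = 0.981). Without null replicate 3 its value was -0.11. Pdk2 had a log2 fold change of -0.42, Pdk3 of -0.04 and Pdk4 of -0.23, or -0.20, -0.13 and -0.10 without null replicate 3. Pdk2 varied 5.69-fold between the highest and lowest library, the widest spread of any tested member, with null replicates 2 and 3 below 1 TPM.

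Among HIF subunits and oxygen sensors the median log2 fold change was -0.22 and turned to 0.10 without null replicate 3. Hif1a, the oxygen-regulated subunit, was at 241, 279.6, 277 and 248 TPM in WT and 304, 282, 108 and 271 TPM in null mice. Null replicates 1 and 2 lay above the WT range and null replicate 4 inside it, whereas null replicate 3 was at under 0.5 of every other library. Its log2 fold change was -0.22 with all libraries and 0.13 without that one. Its partner Arnt was also lowest there, at 25.1, 26.4, 33.7 and 31.9 TPM in WT and 33.6, 35.6, 11.2 and 25.7 TPM in null mice, and its log2 fold change of -0.24 became 0.11 without it. Epas1 (HIF-2 alpha) was at 3.95, 4.47, 5.46 and 2.73 TPM in WT and 4.33, 4.70, 4.13 and 5.20 TPM in null mice (log2 fold change 0.14), so Hif1a held 98.4% ± 0.35 of the Hif1a and Epas1 total in WT and 97.9% ± 1.03 in null mice (n = 4 each, SD).

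Egln3 (PHD3), a prolyl hydroxylase that HIF itself induces, was the sensor whose groups did not overlap. It was at 1.604, 1.27, 1.61 and 1.24 TPM in WT and 1.055, 1.23, 1.001 and 0.812 TPM in null mice. These levels sit above only 4.92% of tested genes, and the lowest WT and highest null values differed by 0.0025 TPM. The log2 fold change was -0.26 with a 95% interval of -0.55 to 0.02 (limma adjusted p = 0.981), and it was also -0.26 without null replicate 3. Egln1 (PHD2), the main oxygen sensor, was at 4.80 ± 0.415 TPM in WT and 4.998 ± 0.475 TPM in null mice (n = 4 each, SD), and Egln2 (PHD1) at 7.12 ± 0.789 TPM in WT and 6.89 ± 1.054 TPM in null mice (n = 4 each, SD). Vhl, which recognises hydroxylated HIF alpha, was at 38.2, 33.6, 19.1 and 34.5 TPM in WT and 27.5, 22.7, 26.3 and 25.0 TPM in null mice. WT replicate 3 was below all other libraries and the groups overlapped (log2 fold change -0.25).

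Of the 8 HIF-induced genes, 7 had a negative fold change and 0 passed; the median was -0.21, or -0.13 without null replicate 3. Ndrg1, a stress-responsive gene, was the most abundant, at 257, 173, 343 and 176 TPM in WT and 293, 193, 123 and 265 TPM in null mice. Its spread within each group exceeded the difference between them, and the log2 fold change of -0.13 became 0.12 without null replicate 3. Vegfa, the angiogenic growth factor, was at 243, 223, 227 and 209 TPM in WT and 215, 283, 132 and 231 TPM in null mice. Null replicate 3 was again the lowest library and null replicate 2 the highest, and the log2 fold change was -0.12, or 0.10 without null replicate 3.

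The genes of mitochondrial clearance Bnip3 and Bnip3l were both lower on average. Bnip3l was at 81.2, 74.0, 79.1 and 77.3 TPM in WT and 71.1, 63.8, 37.3 and 73.6 TPM in null mice. The groups did not overlap, null replicate 3 was the lowest, and null replicate 4 missed the lowest WT library by under 1 TPM. The log2 fold change was -0.38 (95% interval -0.87 to 0.10), and -0.16 without null replicate 3. Bnip3 was at 93.3, 65.3, 92.7 and 89.1 TPM in WT and 73.0, 65.8, 57.4 and 82.5 TPM in null mice. WT replicate 2 was low among the WT libraries and brought the groups into overlap (log2 fold change -0.28).

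Car12, a membrane carbonic anhydrase that helps to buffer acid outside the cell, was at 5.86, 5.81, 5.15 and 4.61 TPM in WT and 4.55, 4.54, 3.05 and 4.38 TPM in null mice. The groups did not overlap, with 4.61 TPM in the lowest WT library and 4.55 TPM in the highest null library. The log2 fold change was -0.32 with a 95% interval of -0.67 to 0.04 (limma adjusted p = 0.981), or -0.21 without null replicate 3. Car9, the related enzyme most often used as a sign of hypoxia, was near the limit of what was tested, at 1.04, 0.889, 1.32 and 0.681 TPM in WT and 1.21, 2.49, 1.08 and 0.559 TPM in null mice. Adm, the vasodilator adrenomedullin, was at 3.496, 2.26, 3.96 and 5.37 TPM in WT and 2.32, 2.36, 2.36 and 3.28 TPM in null mice, where 3 of the 4 null values were alike and WT replicate 2 was lower still (log2 fold change -0.38). Ankrd37 had a log2 fold change of -0.09.

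Null replicate 3 was low for a large share of the 42 genes, as it was for all genes. It was the lowest of the 8 libraries for 20 of 42 genes (47.6%), against 43.3% of all tested genes. It was at under 0.5 of the lowest other library for 5 (Eno2, Pfkfb3, Arnt, Hif1a and Pfkfb4), or 11.9%, against 6.25% of all tested genes. The median deviation of this library from the mean of the other 7 was -0.32 on the log2 scale for the 42 genes and -0.28 for all tested genes. Across genes, the deviation was more negative for genes with longer annotated transcripts, with a Spearman correlation of -0.26 over the 42 members and -0.32 over 13896 tested genes. Genes are not independent replicates, and these correlations are descriptions of 1 library.

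**Figure D3:**
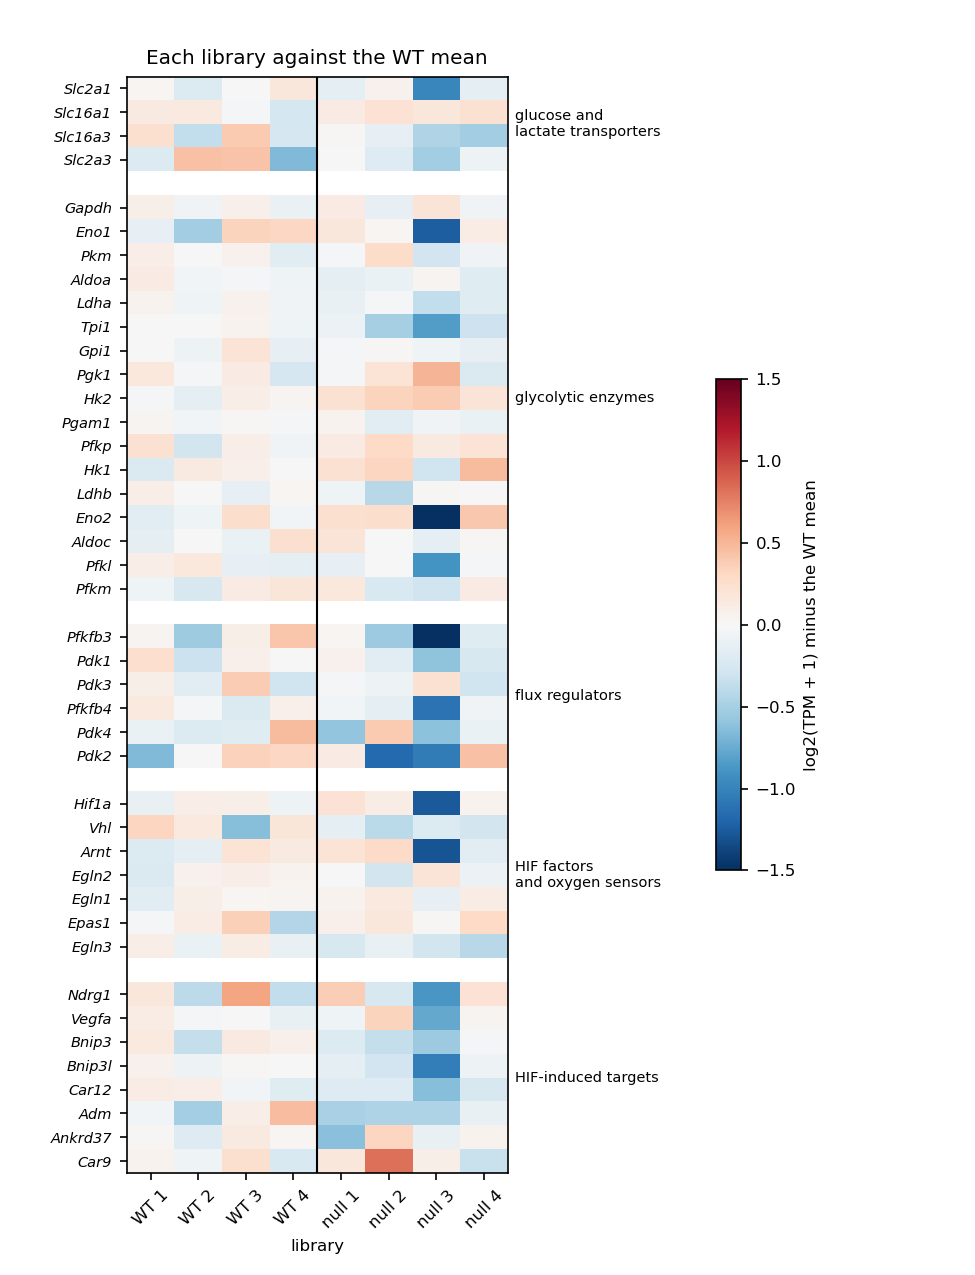
Log2(TPM + 1) of each member in each library minus its WT mean, with the colour scale cut at 1.5 on either side and white rows between roles. The column of null replicate 3 holds most of the dark blue cells, among them Eno1, Eno2, Pfkfb3, Hif1a and Arnt, and the rows of Gapdh, Gpi1, Pgam1 and Egln1 are pale throughout.

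Paralogs that catalyse the same step were compared as shares of their summed TPM in each library, since a share does not depend on the library total. In 13 families, 0 shares differed between the groups in a two-sided exact permutation test with 70 labelings, where the smallest possible p is 0.0286. The smallest p was 0.0857 before and 0.743 after Benjamini-Hochberg adjustment over the 13. It belonged to Pfkl among the phosphofructokinases, at 29.8% ± 4.57 in WT and 24.1% ± 4.63 in null mice (n = 4 each, SD), and the difference of -5.65 percentage points was -3.35 without null replicate 3, where the share was 17.2%. Pfkp was the largest of these at 59.0% on average over all libraries. The share of Slc16a1 in the lactate carriers was 81.5% ± 4.44 in WT and 86.3% ± 2.81 in null mice (n = 4 each, SD).

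The shares also give the prevailing isoform of each step at the RNA level. Slc2a1 held 99.6% of the glucose transporter pair in both groups. Aldoa held 89.1% ± 1.70 in WT and 88.3% ± 1.52 in the null group, Eno1 92.2% ± 1.75 and 91.99% ± 1.63, and Ldha 82.9% ± 1.25 and 82.1% ± 3.34 (SD, n = 4 each). Pseudogenes of nearly the same sequence are left out of these shares. The one for Ldhb took 6.62% to 38.2% of its TPM with Ldhb in WT and 33.3% to 46.3% in null mice. The near-equal Ldha shares therefore hold only for Ldhb without that pseudogene. Hk1 was the lesser hexokinase, at 33.6% ± 3.17 in WT and 32.2% ± 6.07 in the null group. Pfkfb3 held 95.1% ± 1.38 and 94.3% ± 1.01 of its pair, and Pdk1 53.1% ± 4.24 and 51.2% ± 5.10 of the kinases (SD, n = 4 each). Of the prolyl hydroxylases Egln1 held 36.0% ± 1.04 in WT and 38.9% ± 5.16 in the null group, below Egln2, which averaged 53.2% over the 8 libraries. Without null replicate 3, where the Egln1 share was 31.9%, it differed by 5.19 percentage points, with a Benjamini-Hochberg adjusted p of 0.371 in the exact permutation test.

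**Figure D4:**
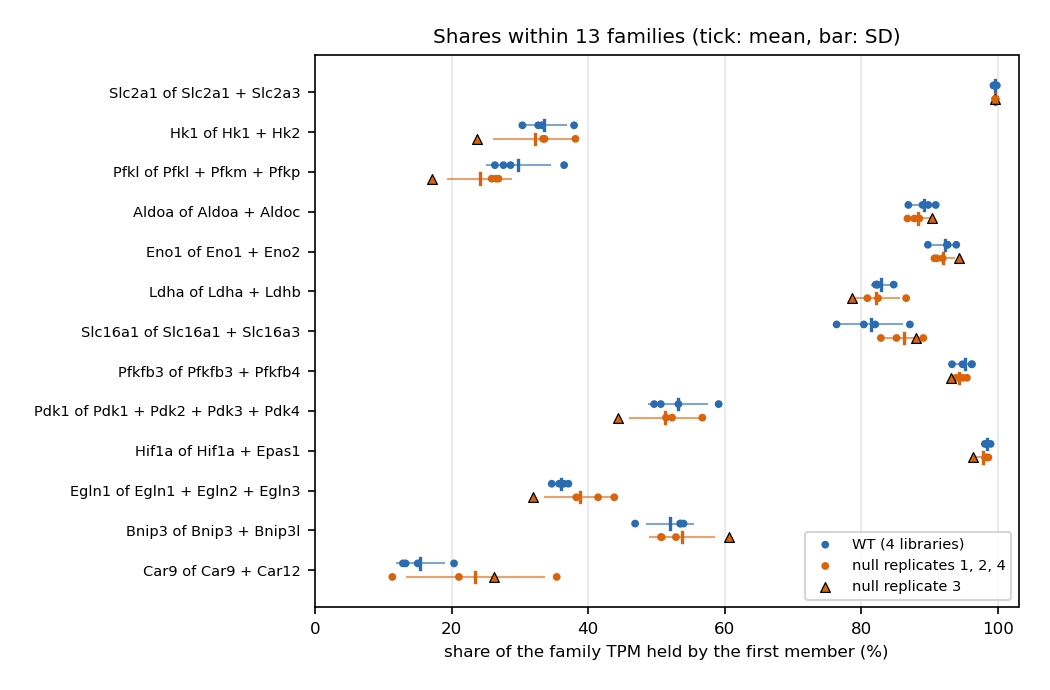
Share of the summed TPM of each of 13 families held by the first-named gene, in percent. Points are libraries (WT blue, null orange, triangle null replicate 3), ticks are group means and bars the SD, and the groups overlap in every family.

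Several enzymes have processed pseudogenes or another gene with nearly the same sequence, and the TPM of a read that could come from either was divided between them. Of the 42 members, 10 had such copies, defined by at least 95% identity over at least 80% of a transcript of at least 200 bases. There were 98 copies, 96 of them pseudogenes, and 18 reached 1 TPM in a library. Gapdh had 82 of them, which took 43.2% to 48.6% of the TPM of Gapdh and its copies in every library. Gm12671, identical to Gapdh over its whole length, was at 413, 129, 140 and 343 TPM in WT and at 117, 0, 419 and 109 TPM in null mice. Gm13394, at 99.9% identity, was at 0, 212, 282 and 0 TPM in WT and at 254, 382, 0.71 and 217 TPM in null mice. One pseudogene was high where the other was low, and the 2 together summed to 327 to 422 TPM in every library.

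With its copies added, Gapdh was at 869.7 ± 70.1 TPM in WT and 873 ± 80.5 TPM in null mice (n = 4 each, SD). For Eno1 the copies took 0% to 28.0%, and they were high in the libraries where Eno1 itself was low. Eno1b was at 51.8 TPM in WT replicate 1, 32.9 TPM in WT replicate 2 and 41.4 TPM in null replicate 3, and at 0.27 TPM or less elsewhere. The ratio of the highest to the lowest library was 2.99 for Eno1 alone and 2.15 with the copies added, and null replicate 3 was still the lowest, at 199 TPM.

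Pgk1, which makes the first ATP of glycolysis, shared its TPM with Gm5537 and Pgk1-rs7, both identical to it. They took 12.5% of the total in null replicate 3 and 33.9% to 44.9% in the other libraries. Pgk1 alone was at 89.7, 79.1, 88.1 and 67.3 TPM in WT and 79.2, 93.1, 115 and 69.0 TPM in null mice, and its ratio of highest to lowest library was 1.71 alone and 1.39 with the copies added. For Ldhb the pseudogene Gm5514 took 6.62% to 46.3%, and the log2 difference changed from -0.11 for Ldhb alone to 0.27 with the copy. For Tpi1 a short copy reached 9.59 TPM in WT replicate 2 and 5.35 TPM in null replicate 3 and was at 0 in the other libraries, and the difference with it added was again -0.43. The separate levels of Gapdh, Eno1, Pgk1, Ldhb, Pgam1 and Bnip3 are therefore uncertain.

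**Figure D5:**
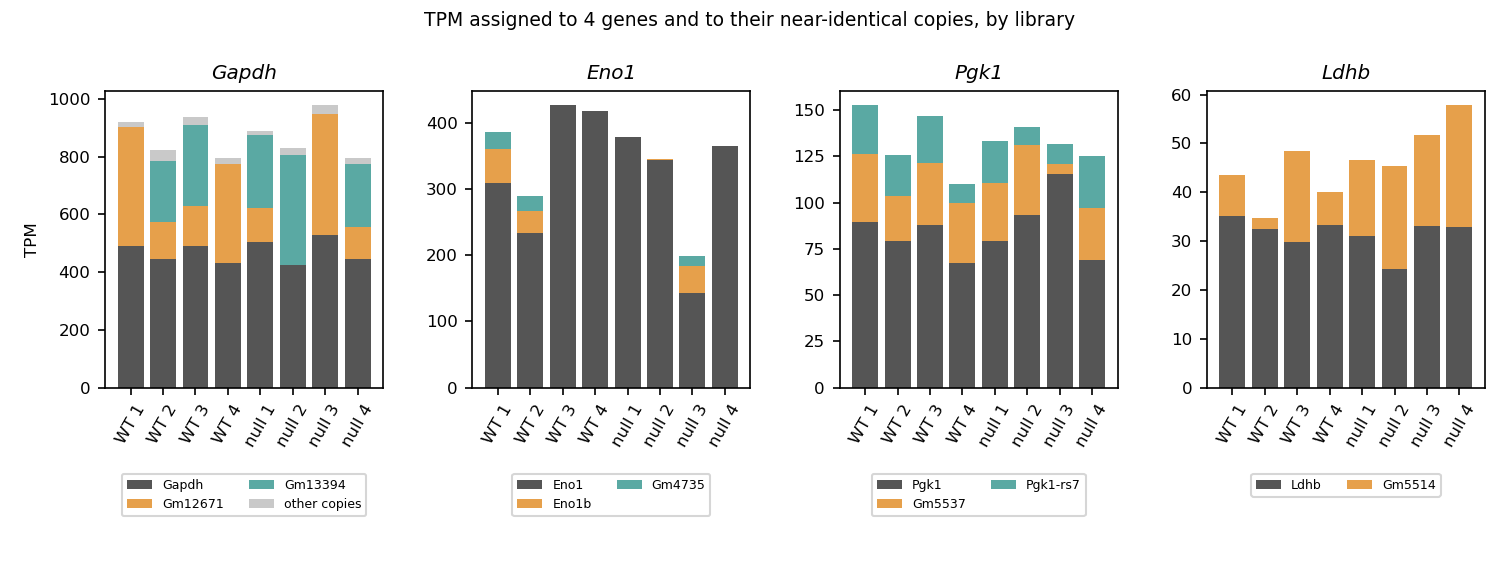
TPM (vertical axis, from 0) assigned in each library to Gapdh, Eno1, Pgk1 and Ldhb (dark) and, stacked above, to their near-identical copies. The 2 coloured Gapdh copies replace each other between libraries while their sum stays near 327 to 422 TPM, and Eno1 copies appear in WT replicates 1 and 2 and null replicate 3.

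Genes that overlap a member on the genome could also share its reads. On the opposite strand this holds only if strand was not used, and the sources used here do not say whether it was. Ufsp2, on the strand opposite Ankrd37, averaged 20.8 TPM and shares 57 exonic bases with it, while Ankrd37 itself was at 1.56 to 3.92 TPM. Pitrm1 averaged 40.2 TPM opposite Pfkp and shares 748 exonic bases (5.58% of Pfkp). On the same strand the use of strand makes no difference. There Hif1a shares 148 exonic bases with AC124712.1, at 18.9 TPM. Pkm shares 767 (15.3% of Pkm) with AC160637.1, at 7.84 TPM.

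Other genes of the same pathways, outside the 42, gave a like picture. Of 29 further genes of glycolysis and glucose handling, 17 were tested and 0 passed (1 at an unadjusted p under 0.05), with 7 positive and 10 negative values and a median log2 fold change of -0.05, or 0.02 without null replicate 3. Eno3, the muscle-type enolase, had the smallest p of any gene in these lists. It was at 11.5, 15.4, 16.6 and 16.3 TPM in WT and 8.70, 8.54, 8.72 and 10.1 TPM in null mice, which did not overlap. Its log2 fold change was -0.66 with a 95% interval of -1.004 to -0.32 (limma unadjusted p = 0.00196, adjusted p = 0.981), and -0.65 without null replicate 3. Muscle markers summed to 42.6 to 110 TPM in WT and 57.2 to 80.9 TPM in null mice, mostly through Tnnt3 and Mylpf, and their part in the value of Eno3 was not tested. Tigar, which lowers fructose 2,6-bisphosphate, had a log2 fold change of -0.34, and Gys1, glycogen synthase, -0.27.

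Genes that bring pyruvate into the mitochondrion were close between groups: all 9 were tested, 1 positive and 8 negative, with a median of -0.06 and 0 passing (0 at an unadjusted p under 0.05). Those with the smallest p were Pdp2 (-0.24), a phosphatase that reactivates pyruvate dehydrogenase, and the subunits Pdha1 (-0.11) and Dld (-0.15). Without null replicate 3 these values were -0.10, 0.0011 and 0.01, and the median of the list was -0.00040. Of 31 further genes of the HIF pathway, 27 were tested and 0 passed (2 at an unadjusted p under 0.05), with 7 positive and 20 negative values and a median of -0.16, or -0.04 without null replicate 3. Ddit4, an inhibitor of mTORC1, was at 59.0, 49.8, 58.9 and 66.1 TPM in WT and 51.5, 36.7, 42.2 and 49.4 TPM in null mice, with a log2 fold change of -0.38 (limma unadjusted p = 0.0332, adjusted p = 0.981). Hilpda, which promotes lipid droplet storage in hypoxia, had a positive fold change, at 41.1, 41.6, 43.9 and 57.9 TPM in WT and 46.8, 74.6, 76.2 and 57.9 TPM in null mice (log2 fold change 0.45; limma unadjusted p = 0.047, adjusted p = 0.981). Epo, the erythropoietin gene, was listed at 0 TPM in all 8 libraries.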

How the data were processed

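The members and gene lists were chosen with earlier results of these data known. RNA from 4 WT and 4 null mice was prepared with a low-input NEB kit from total RNA, per the labels. The authors deposited 1 table of TPM values, called length-scaled, with 1 column per library. Kallisto and DESeq2, with no version or role, are named per the submitters' processing notes, which give GRCh38, a human build, although the identifiers belong to mouse Ensembl genes. Some rows of the table were repeated, across all its columns, and with the repeats counted the column of null replicate 3 summed past the TPM total. With the 52325 identifiers of the 52865 rows counted once, every column summed to 1000000. TPM keeps no record of depth, so depth is unknown and no counting interval is given. Being a share of a total, TPM also moves for all genes when a few abundant ones change. The design foresaw a count model for counts and this fallback for TPM.

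The test, on the 13910 genes with at least 1 TPM in at least 4 libraries, was limma's (version 3.58.1, R 4.3.3) on log2(TPM + 1), with genotype as the term, a trended variance and Benjamini-Hochberg adjustment at 0.05. Such fold changes understate those of low genes. p-values describe the spread between 4 animals per group. Positions are from GENCODE M21 (GRCm38), which 52220 identifiers matched and which may not be the authors' annotation. Copies were sought with BLAST+ 2.17.0. The fit was checked on simulated data at the same threshold. It recovered 1.49% of 1.5-fold changes, 49.3% of 2-fold changes and 90.9% of 4-fold changes, with 2 false calls. Most changes of 1.5-fold would thus be missed at this threshold. Values were named by rule: the most abundant gene and the 3 smallest p of each member group, and the 3 smallest p of each further list, with others chosen after their values were seen (Hk1, Eno1, Eno2, Arnt, Bnip3, Vegfa and Car9). Values by library are also given for Slc2a3 and Pgk1, which the rule does not name. A gene that the rule names in a further list is not reported here. As alternatives, each library was left out in turn, TPM was scaled by the median of ratios, the pseudocount was set to 0.1, the filter was dropped or set on the mean TPM, and a replicate block or an Xist-to-Y covariate was added. No pair of libraries shared equal values.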

Additional observations from a re-analysis of the deposited data

Results flagged for a closer look

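A library was marked where its distance to the nearest other library of its group divided by the range of the group exceeded Dixon's 95% critical value for 4 samples, which chance does in about 1 of 20 groups. Of 130 groups examined, 14 (10.8%) were marked, 7 of them through null replicate 3 as the lowest. Among the null libraries this ratio was 0.849 for Pfkl, 0.904 for Eno1, 0.918 for Eno2, 0.898 for Pfkfb4, 0.890 for Hif1a and 0.903 for Car12, each through null replicate 3, as was the share of Pfkl among the phosphofructokinases (0.897). Null replicate 4 was the highest null library for Adm (0.953) and for Eno3 (0.872). In WT, replicate 4 was high for Pdk4 (0.842), replicate 1 was low for Egln2 (0.856), replicate 2 was low for Bnip3 (0.869) and for the Bnip3 share of Bnip3 and Bnip3l (0.928), and replicate 3 was high for the Ldha share of Ldha and Ldhb (0.903).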

How the results depend on the processing

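Under every alternative run, 0 of the 42 genes and 0 of the further pathway genes passed limma's test. Over all tested genes 3 passed, and 5 did with a pseudocount of 0.1, while 0 passed with no filter on low values, with a mean TPM of at least 1, with the replicate number as a block and with the Xist-to-Y covariate; leaving out single libraries gave 2 to 7 (7 without WT replicate 1 or 2, 6 without null replicate 1, 5 without null replicate 2). After the group mean of each gene was subtracted, same-number libraries of WT and null mice correlated at -0.04, 0.11, -0.05 and 0.11. Of the 8 libraries, 4 correlated best with their own number in the other group. These values do not settle whether the numbers pair the animals, and the main fit was not paired. The replicate block left 0 genes passing and Tpi1 alone among the 42 at an unadjusted p under 0.05 in limma (against 4.54% of all genes). That count of 2 members became 0 without WT replicate 1 (against 3.18% of all genes) or null replicate 2 (against 3.63%). Without null replicate 3 it was 4 (against 5.06%). Without WT replicate 2 it was made up of Bnip3 and Adm in place of Hk2 and Tpi1 (against 4.42%). Without WT replicate 3 it was made up of Hk2 and Vhl (against 3.59%). The 5 genes whose groups did not overlap became 8 without WT replicate 2, against 6.56% of all genes.

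Signs turned positive with median-of-ratios scaling for Gpi1 (0.022), Pfkm (0.0037), Pgam1 (0.0038), Pkm (0.046), Pdk3 (0.025) and Egln2 (0.020), and with the covariate for Pkm (0.0090). Leaving out single libraries gave ranges that span 0 on the log2 scale for the median of the HIF subunits and sensors (-0.27 to 0.10), Aldoc (-0.035 to 0.10), Pkm (-0.13 to 0.063), Egln1 (-0.0051 to 0.10), Dld (-0.29 to 0.010), Gpi1 (-0.090 to 0.018), Pdk3 (-0.14 to 0.083), Ndrg1 (-0.30 to 0.12), Pfkm (-0.14 to 0.018), Epas1 (-0.0052 to 0.26), Ankrd37 (-0.23 to 0.087), Egln2 (-0.12 to 0.031), Car9 (-0.027 to 0.36), Gapdh (-0.015 to 0.090), Pgk1 (-0.012 to 0.23), Eno1 (-0.40 to 0.10), Eno2 (-0.36 to 0.30), Hif1a (-0.36 to 0.13), Arnt (-0.42 to 0.11), Vegfa (-0.27 to 0.10) and Pdha1 (-0.18 to 0.0011). The differences of shares, in percentage points, ranged from -3.79 to 0.31 for Pdk1, -0.045 to 0.12 for Slc2a1, -3.31 to 1.49 for Hk1, -1.03 to 0.36 for Eno1, -2.21 to 0.43 for Ldha and -0.54 to 2.78 for Bnip3. As a log2 ratio the Slc2a1 share differed by -0.10, and with copies matched by sequence, an alternative chosen after seeing the data, the Bnip3 share differed by -0.090 points; the cause of these changes was not tested. The remaining 130 share values, 680 single-gene values and 102 counts and medians kept their direction, or stayed within the limits set for them.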
